A study of Mus musculus with 11 samples.

Results

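Kinesins and cytoplasmic dynein were followed across 8 single nucleus RNA tables of mouse trigeminal ganglion. The members were the rows whose symbol starts with Kif, Klc, Dync1, Dync2 or Dctn followed by its number or subunit letter and that held at least 50 unique molecular identifiers (UMIs, single captured RNA molecules) over the 7 tables made with 10x Genomics droplets. There were 51 such genes among 55 matching names and 24243 listed symbols. Just inside the limit were Klc3 with 52 UMIs and Kif20a with 61, and just outside were Kif7 with 38 and Kif18b, Kif16bos and Kif22-ps with 3 each. The members comprised 7 kinesin-1 chains, 4 kinesin-2, 7 kinesin-3, 4 kinesin-4 and 15 mitotic, depolymerizing or other kinesins, 5 dynein-1 and 2 dynein-2 subunits, 6 dynactin subunits and Kif1bp. Kif1bp encodes a KIF1-binding protein and not a motor, and was kept because its symbol matches.

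The mice are labelled C57BL, and C57BL/6NCrl in the study's methods, except in the scratch lesion library, which came from an FVBN/C57BL/129 mix. The uninjured mice are labelled wildtype. Mice were older than 6 weeks, males and females were pooled, and each 10x library held the nuclei of 10 mice, or of 6 mice at day 75. The control library came from uninjured mice. Injury libraries came from the ipsilateral ganglion at days 2, 7, 21 and 75 after IOT, a transection of superficial infraorbital branches on 1 side that spares other branches. A facial injury library came from mice with skin cuts on the cheeks and forehead 2 days earlier. According to the study's methods the mice with scratch lesions were double heterozygous for Fos-tTA and tetO-mCherry-2A-Gnaq, scratched themselves, and had no detectable mCherry in sensory neurons. A table made by Drop-seq, another droplet method, pooled 4 libraries of 16 uninjured mice. Nuclei were enriched with an antibody to the neuronal nuclear protein NeuN, and the authors had removed non-neuronal clusters. With 1 library a condition, differences between libraries are given as values with no test. Tests compare groups of nuclei inside the same libraries, so their p-values measure only the spread of those differences between libraries of pooled mice.

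The 10x libraries held 37181 nuclei, 9135460 to 22003842 UMIs each and medians of 1747 to 4178.5 UMIs a nucleus. The members made up 1.004% of all 10x UMIs, from 0.827% at day 2 to 1.21% after facial injury. Pairs of 10x libraries shared 16 to 92 cell barcodes, and each of the 7 sensory neuron markers listed had UMIs in every library.

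An axon can be far longer than its cell body is wide, and motors carry its supplies along microtubules. Kinesin-1, made of Kif5 heavy chains and Klc light chains, and kinesin-3 motors such as Kif1a and Kif1b move vesicles and mitochondria toward the axon terminal. Cytoplasmic dynein-1, with its activator dynactin, moves endosomes and injury signals back to the cell body. Other kinesins shorten microtubules, serve cilia or act in the mitotic spindle, and sensory neurons no longer divide.

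Promoters are shown for the kinesins with the largest changes above 5 CPM (UMIs of the gene scaled to the same UMI total in each group) in injured neurons, Kif22 and Kif24, which rose, and Kif26a, which fell. The sequences are RefSeq's on GRCm38.p6, run 5′ to 3′ on the gene's strand from 250 bases before the start to 50 after it, and have the CCAAT box in capitals, read on either strand as CCAAT or ATTGG. They lie at chr7:127042371-127042670 (minus strand), chr4:41464799-41465098 (minus strand) and chr12:112145958-112146257 (plus strand).
Kif22: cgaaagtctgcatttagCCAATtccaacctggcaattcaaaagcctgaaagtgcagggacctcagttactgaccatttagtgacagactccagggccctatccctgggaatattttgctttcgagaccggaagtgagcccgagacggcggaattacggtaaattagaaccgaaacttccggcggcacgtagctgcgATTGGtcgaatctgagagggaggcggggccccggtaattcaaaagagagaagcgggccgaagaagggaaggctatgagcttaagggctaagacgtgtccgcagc
Kif24: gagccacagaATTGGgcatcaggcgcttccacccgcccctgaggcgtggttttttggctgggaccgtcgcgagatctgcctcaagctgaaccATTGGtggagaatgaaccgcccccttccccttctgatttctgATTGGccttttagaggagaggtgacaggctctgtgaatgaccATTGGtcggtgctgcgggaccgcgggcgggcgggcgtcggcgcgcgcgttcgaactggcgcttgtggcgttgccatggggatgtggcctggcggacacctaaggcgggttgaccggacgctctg
Kif26a: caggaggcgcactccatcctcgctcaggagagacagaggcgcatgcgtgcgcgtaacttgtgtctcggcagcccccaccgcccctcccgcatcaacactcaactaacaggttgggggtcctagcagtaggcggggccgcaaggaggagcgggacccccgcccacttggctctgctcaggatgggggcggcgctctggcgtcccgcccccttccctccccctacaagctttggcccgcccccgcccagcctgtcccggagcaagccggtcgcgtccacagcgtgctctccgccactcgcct
The Kif22 window held 2 CCAAT boxes, the Kif24 window 4 and the Kif26a window 0. RefSeq gave 45 promoters for 39 of the 51 members, and 19 of the 45 (42.2%) held the box against 37.4% of all 32851 promoters. The cAMP response element TGACGTCA was in 5 of 45 (11.1%), those of Dctn3, Kif17, Kif18a, Kif5c and Klc1, against 1.79% of all promoters. The AP-1 motif TGANTCA was in 0 of 45, against 7.81%. Both strands were searched, and TGACGTCA does not itself contain TGANTCA. These matches describe letters and not binding.

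Per length of gene, the most abundant member was the light chain Klc1, with a median of 19.5 CPM per kilobase of gene body over the 10x libraries. Introns were counted, so gene body length was used. Of the motors and subunits described below, the next were the heavy chains Kif5b with 14.5 and Kif5a with 13.97, the kinesin-3 motor Kif1b with 13.3, the dynactin subunit Dctn3 with 12.9, Kif1a with 11.99 and Klc2 with 11.5 CPM per kilobase. The dynein light intermediate chain Dync1li2 followed with 9.24, the dynein heavy chain Dync1h1 with 8.34, the dynactin subunit Dctn2 with 7.56, the kinesin-4 motor Kif21a with 6.96, the dynein intermediate chain Dync1i2 with 6.76, the dynactin subunit Dctn4 with 5.42 and the neuronal heavy chain Kif5c with 4.56 CPM per kilobase.

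Levels of the transport motors differed between libraries by more than counting error. Kif1b ran from 1260 to 2156 CPM over the 10x libraries and was 3398 CPM in Drop-seq. Kif5b ran from 333 CPM at day 7 to 844 after facial injury and stood at 1675 in Drop-seq. Dctn1, the large dynactin subunit that contacts dynein and the microtubule, ran from 45.9 CPM at day 2 to 173 after facial injury. A wide step between methods was that of Kif3a, a heavy chain of kinesin-2, with 54.7 to 82.7 CPM in the 10x libraries and 401 in Drop-seq. In the plot of levels by library the Drop-seq crosses often lie apart from the 10x points of the same gene.

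**Figure D1:**
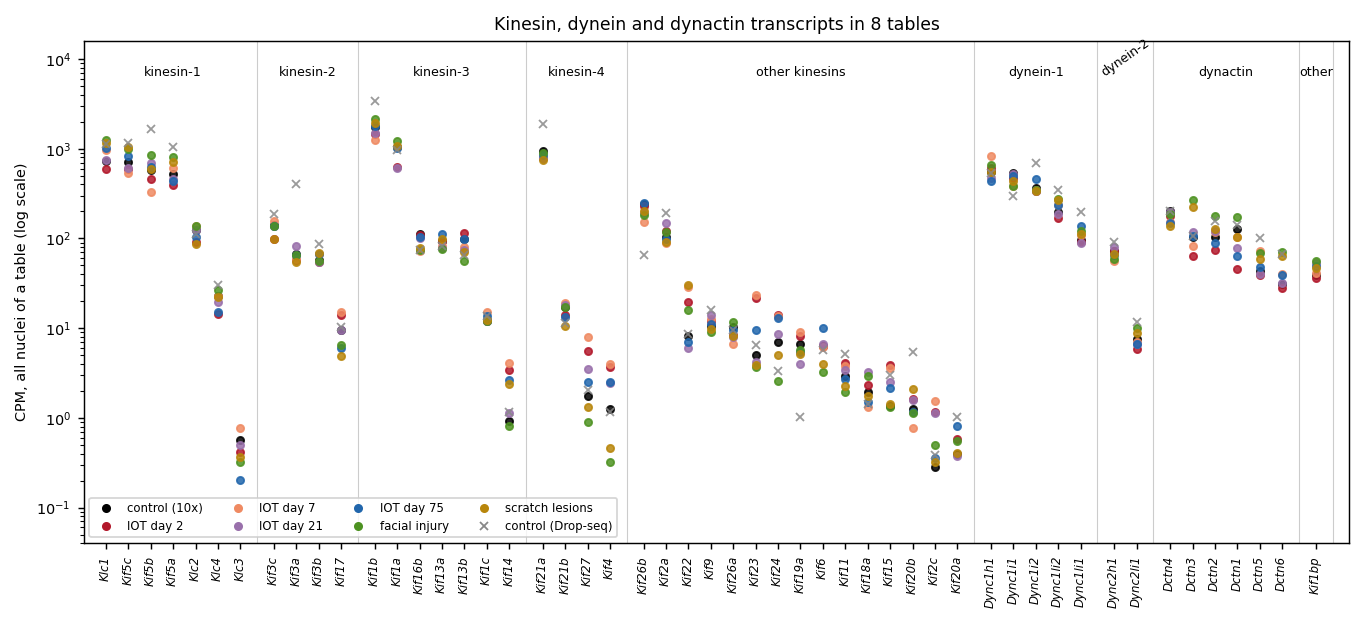
Level of each member in each library, in CPM on a log axis, grouped by family. Points are 10x libraries and crosses the Drop-seq control. The 10x levels of Kif1b lie between 1260 and 2156 CPM, while the Kif3a cross lies at 401 CPM above 10x points of 54.7 to 82.7 CPM.

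Kif23, a kinesin of the central spindle in dividing cells, was high in 2 libraries, with 21.7 CPM at day 2 and 23.3 at day 7 against 3.73 to 9.63 in the other 10x libraries. The same step was present in nuclei without injury markers, with 19.5 and 22.1 CPM against 4.06 to 10.3. In those unmarked nuclei 8 leukocyte markers summed to 151 and 165 CPM at days 2 and 7 against 35.5 to 124 elsewhere, and 8 Schwann cell markers to 1090 and 1342 CPM against 484 to 968. Their part in the Kif23 level was not tested.

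Injury-marked neurons were next compared with unmarked neurons of the same ganglia. A nucleus was called marked with at least 2 UMIs of Atf3 and Sema6a together, both injury-induced genes, and unmarked with 0, and nuclei with 1 UMI were left out. Marked nuclei were 17.9% of the library at day 2, 10.8% at day 7, 9.05% at day 21 and 8.31% at day 75. They were 4.10% after scratch lesions and 2.32% after facial injury, and 2.56% (112 of 4368 nuclei, exact 95% interval 2.12 to 3.08%) in the uninjured control. At this gate the facial injury share was thus no higher than that of the control. Nuclei with UMIs of both genes were 9.59%, 6.84%, 4.92% and 2.20% in day order. They were 2.02% after scratch lesions, 0.958% after facial injury and 0.0687% in the control. The study's injured clusters held a smaller share at day 75 than the marked nuclei, and the 2 were not matched. Marked nuclei were deeper, with a median of 4188 UMIs against 3048.5 at day 2 and 4724 against 3135.5 in the control library.

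After IOT, 11 of the 48 members tested differed between marked and unmarked nuclei (edgeR quasi-likelihood test, adjusted p under 0.05). Of these, 7 were higher and 4 lower, beside 8.96% higher and 7.3% lower among all 15864 genes tested. Kif22, Kif14, Kif24, Dync1h1, Kif2a, Kif1b and Kif3c were higher, and Kif26a, Kif26b, Dync1i1 and Kif5b were lower. Each of the 11 kept its direction in 4 of 4 IOT libraries. The median log2 difference over the members tested was -0.02 against -0.01 over all genes. Kif20a, Kif2c and Klc3 were too low to be tested. A model without the library as a block called 0 members (281 genes of all), and leaving out day 2 or day 21 left 6 or 7. Among nuclei of 2000 to 6000 UMIs, where depth differs less, 9 of the 11 passed, and Kif1b (0.24, adjusted p = 0.073) and Kif3c (0.15, adjusted p = 0.37) did not.

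Kif22, a chromokinesin that moves chromosomes in mitosis, rose most. It stood at 56.1 CPM in marked and 9.26 in unmarked nuclei at day 2, 84.2 and 17.9 at day 7, 12.4 and 5.36 at day 21, and 16.9 and 5.81 at day 75. Marked nuclei were thus higher at each time, and the highest levels were at days 2 and 7. The log2 difference was 2.12 ± 0.21 (SE, n = 4 libraries, adjusted p = 9.07e-06, edgeR). The marked nuclei of the control library held 2.98 CPM (2 UMIs) against 8.45, and those of the Drop-seq control 5.22 against 9.20. Both marked values lie below the level of 3 counts, 4.47 CPM in the 10x and 15.6 CPM in the Drop-seq control. They rest on too few UMIs to give a direction. Kif22 lies on chromosome 7 from 127027729 to 127042471 (mm10, minus strand), opposite Gm31749, and no source used here says whether strand was used in counting.

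The 15 genes of a proliferation list were also higher in sum, at 106.6 CPM in marked and 48.8 in unmarked nuclei at day 2 and at 103.8 and 53.8 at day 7. At day 21 the sums were 42.4 and 35.1, and at day 75 they were 45.5 and 36.7. After scratch lesions, where the Kif22 level of marked nuclei was highest, the sums were 27.3 and 20.8 CPM. They were 28.1 and 22.2 after facial injury, and 32.8 in both groups of the control. The marked sums of these libraries rest on 35, 21 and 22 UMIs in that order. Cenpf, a kinetochore protein, rose by 1.94 (log2), the spindle midzone protein Prc1 by 1.02 and the spindle assembly factor Tpx2 by 0.89, and these 3 of the 11 tested were called. Marker sums of satellite glia and of leukocytes were also higher in marked nuclei in 4 of 4 IOT libraries, those of fibroblasts in 3 of 4, and those of Schwann cells and vascular cells in 0 of 4. The summed sensory neuron markers were higher in marked nuclei in 1 of 4, with 3882 against 4599 CPM at day 2, 3157 against 4735 at day 7, 5762 against 6577 at day 21 and 4676 against 4612 at day 75. The part of such cells in the Kif22 difference was not tested.

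Of the low-level kinesins, Kif24, which acts at centrioles, stood at 22.0 CPM in marked and 11.1 in unmarked nuclei at day 2, 22.1 and 11.1 at day 7, 9.42 and 8.88 at day 21, and 22.3 and 12.7 at day 75. Its log2 difference was 0.82 ± 0.21 (adjusted p = 0.013). Kif14, a kinesin of cytokinesis, went from 7.67 against 2.62 CPM at day 2 to 7.36 against 3.61, 1.77 against 0.922 and 4.90 against 2.64 CPM at the later days. Its log2 difference was 1.23 ± 0.31 (adjusted p = 0.013). At day 21 the exact 95% Poisson intervals of the Kif24 levels overlapped (5.39 to 15.3 and 7.27 to 10.7 CPM). Without day 2 neither was called, with log2 differences of 0.71 (adjusted p = 0.12) and 0.99 (adjusted p = 0.18), and without day 7 Kif24 stood at 0.74 (adjusted p = 0.052).

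Kif26a, a kinesin-like protein that lacks motor activity, fell most. Marked and unmarked nuclei held 3.35 and 10.1 CPM at day 2, 0.817 and 7.51 at day 7, 2.94 and 9.05 at day 21, and 4.90 and 10.8 at day 75. The groups did not overlap over these libraries, and the log2 difference was -1.53 ± 0.28 (adjusted p = 0.0012). The control library gave 7.45 CPM in its marked and 10.6 in its unmarked nuclei, a log2 ratio of -0.51. With 3 counts at 4.47 CPM there, the marked level rests on too few UMIs to size this gap. Its relative Kif26b was at 143 and 258 CPM at day 2, 94.8 and 166 at day 7, 127 and 206 at day 21, and 239 and 254 at day 75. Kif26b had a log2 difference of -0.55 ± 0.11 (adjusted p = 0.0026), but the control library's marked nuclei differed by as much, with a log2 ratio of -0.60.

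**Figure D2:**
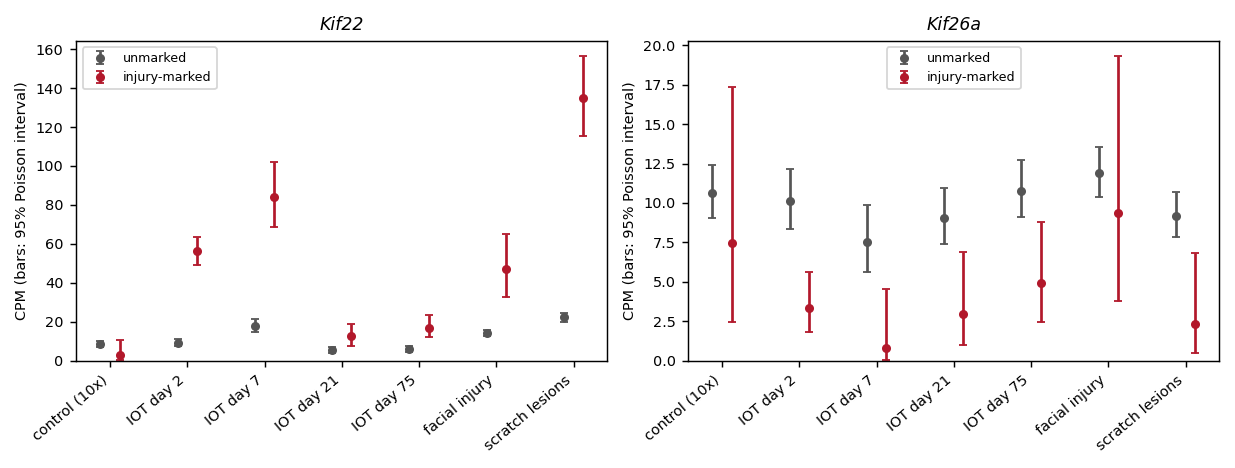
Kif22 and Kif26a in injury-marked and unmarked nuclei of each 10x library, in CPM from 0, with exact 95% Poisson intervals for counting error. Marked nuclei held 84.2 CPM of Kif22 at day 7 and 134.9 after scratch lesions against 17.9 and 22.2 in unmarked nuclei, and 0.817 CPM of Kif26a at day 7 against 7.51.

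Among the cargo motors, changes were small. The dynein heavy chain Dync1h1, which holds the motor domain of dynein-1, stood at 797 CPM in marked and 550 in unmarked nuclei at day 2, 1051 and 794 at day 7, 544 and 456 at day 21, and 482 and 425 at day 75. Its log2 difference was 0.39 ± 0.09 (adjusted p = 0.0055), and without day 2 it was 0.32 (adjusted p = 0.051). Dync1i1, the neuronal intermediate chain that links dynein to dynactin, was at 365 and 509 CPM at day 2, 263 and 398 at day 7, 401 and 542 at day 21, and 438 and 497 at day 75. The 2 dynein-1 subunits thus moved in opposite directions, Dync1i1 by -0.38 ± 0.08 on the log2 scale (adjusted p = 0.0036). The other intermediate chain, Dync1i2, differed by -0.01.

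Kif5b, the ubiquitous kinesin-1 heavy chain, stood at 413 and 477 CPM at day 2, 204 and 360 at day 7, 541 and 729 at day 21, and 536 and 637 at day 75. Its log2 difference was -0.37 ± 0.09 (adjusted p = 0.011), and -0.36 without day 21 (adjusted p = 0.063). Kif1b went the other way, with 1557 and 1383 CPM at day 2, 1390 and 1222 at day 7, 1784 and 1410 at day 21, and 2084 and 1713 at day 75. It rose by 0.29 ± 0.07 on the log2 scale (adjusted p = 0.012), and without day 21 it stood at 0.27 (adjusted p = 0.078).

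The other 2 calls were smaller in level. Kif2a, a depolymerizing kinesin that prunes axon branches, rose by 0.35 ± 0.09 (adjusted p = 0.017), with 147 and 112 CPM at day 2, 113 and 85.1 at day 7, 195 and 146 at day 21, and 99.0 and 98.3 at day 75. It was not called without day 2, 7 or 21 (0.32, 0.30 and 0.32, adjusted p = 0.11, 0.061 and 0.10). Kif3c, a kinesin-2 heavy chain, stood at 107 and 94.5, 177 and 152, 151 and 134, and 161 and 132 CPM in day order. It had a log2 difference of 0.26 ± 0.08 (adjusted p = 0.043), and leaving out any 1 library of the 6 in the fit ended the call (log2 differences of 0.23 to 0.28).

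The remaining main motors had differences too small to pass: 0.13 each for Kif5c, Kif21a and Klc1, 0.05 for Klc2, 0.01 for Kif3a, -0.08 for Kif5a, -0.09 for Dctn1 and -0.11 for Kif1a on the log2 scale. Of the 6 dynactin subunits 0 were called by edgeR, 0 passed an unadjusted p of 0.05, and DESeq2 called 0, with log2 differences of -0.10 to 0.07. Of the 4 kinesin-4 genes 0 were called (1 at an unadjusted p of 0.05, 0 by DESeq2, differences of -0.41 to 0.74), and of the 2 dynein-2 subunits 0 (0 and 0).

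The same gate was applied to the uninjured control library, and whether its 112 marked nuclei were injured neurons was not tested. Its log2 ratios of marked over unmarked nuclei were 0.44 for Kif1b, 0.32 for Dync1h1, 0.31 for Kif3c, -0.32 for Kif5b and -0.19 for Dync1i1, of the same sign as after IOT and for Kif1b and Kif3c larger. Those of Kif2a and Kif24 were 0.08 and 0.14. Set beside these 1-library values with no test, the IOT differences of Kif22 (2.12 against -1.50) and Kif26a (-1.53 against -0.51) lie farthest from the control ratio among the called members above 5 CPM. The control ratio of Kif22 rests on too few UMIs to give a direction. Those of Kif26a and Kif24 also rest on few UMIs in marked nuclei, so their distance from the control is not settled.

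After the milder injuries 1 of 48 members differed, beside 1.43% higher and 1.32% lower among all genes tested. It was Kif22, at 46.9 CPM in marked and 14.1 in unmarked nuclei after facial injury and at 134.9 and 22.2 after scratch lesions. The log2 difference was 2.24 ± 0.28 (n = 2 libraries, adjusted p = 0.00049), and without the scratch lesions it was 1.65 (adjusted p = 0.30), a fit in which the lone facial injury library is assumed to vary like the IOT libraries. At an unadjusted p of 0.05, 8 of 48 members passed, beside 14.8% of all genes. The difference between the IOT effect and the milder effect was itself tested: 6 genes passed (0.0378%), of which 0 were members, with 0 members at an unadjusted p of 0.05 and 0 by DESeq2. Kif24 stood at 0 CPM in marked and 2.59 in unmarked nuclei after facial injury, where 201 marked nuclei and their UMIs allow up to 4.02 CPM at a count of 0.

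Class markers can change with injury, so large and small cells were told apart by 5 residual markers each. Map2, 1 of the large markers, itself rose in marked nuclei by 0.73 (log2) after IOT, and its part in the size calls was not tested. In large-marked nuclei 7 of 47 members were called, beside 7.74% higher and 6.26% lower of all genes. Kif22 rose by 1.99, Kif24 by 0.87, Dync1h1 by 0.32 and Kif2a by 0.30, and Kif26b (-0.55), Dync1i1 (-0.45) and the endosome motor Kif16b (-0.33) fell on the log2 scale. In small-marked nuclei 6 of 47 were called, beside 4.23% higher and 4.15% lower. There Kif22 rose by 2.82 and Kif26a (-2.82), Dync1i1 (-0.52) and Kif5b (-0.44) fell, each in 4 of 4 libraries. Kif24 (1.42) was called higher with 3 of 4 libraries in that direction, since day 21 had 6.52 CPM (1 UMI) in marked and 8.90 in unmarked nuclei. Kif14 (2.08) was called with 2 of 4, at 8 and 5 UMIs in marked nuclei of days 2 and 7 and 0 at days 21 and 75, where unmarked nuclei held 1.02 and 2.74 CPM. Dync1i1, Kif22 and Kif24 were called in both. Kif1b was called in neither, and stood at 0.06 in small-marked nuclei (adjusted p = 0.82, edgeR). Marked nuclei held relatively more large cells. At day 2 they were 583 large and 174 small, against 1598 and 1107 unmarked. At day 75 they were 226 and 37, against 1213 and 1061. The part of this mix in the calls over both sizes was not tested. Without day 2 the counts were 2 and 2, without day 7 they were 4 and 4, and without day 21 they were 3 and 5.

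The contrast of Kif26a between cell sizes was wide. In small-marked nuclei it stood at 1.40 CPM (1 UMI) in marked and 15.9 in unmarked nuclei at day 2, at 0 and 14.5 at day 7, at 0 and 15.3 at day 21, and at 11.4 (2 UMIs) and 16.9 at day 75. In large-marked nuclei it stood at 3.05 and 6.08, 1.16 and 1.25, 3.49 and 3.27, and 3.63 and 5.24 CPM in the same order. Marked small neurons thus held 0 or 1 UMI of Kif26a at 3 of the 4 times, and a count of 0 allows up to 13.2 CPM at day 7 and 19.6 at day 21. In the other libraries the small marked and unmarked nuclei held 36.0 (5 UMIs) and 17.4 CPM after facial injury, 4.33 (2 UMIs) and 14.1 after scratch lesions, and 45.6 (4 UMIs) and 20.2 in the control. The difference of the effects was 2.32 on the log2 scale (unadjusted p = 0.013) but did not pass over all genes (adjusted p = 0.30). Kif22 stood at 101 CPM in small and 44.4 in large marked nuclei at day 2, 163 and 62.9 at day 7, 26.1 (4 UMIs) and 10.46 at day 21, and 11.4 (2 UMIs) and 16.3 at day 75. Its difference of effects was -0.82 (adjusted p = 0.39). In all, 0.703% of genes and 0 of 47 members passed this test. At an unadjusted p of 0.05, 2 members passed beside 9.76% of all genes, and no other tool was run.

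The course after IOT was tested as a trend of the injury effect with log2 day. Of 14588 genes 0 passed (0%), 1095 had an unadjusted p under 0.05, and 0 of 47 members passed with 4 under the unadjusted limit by edgeR, the only tool run. Kif22 had the steepest of these 4, falling by 0.26 on the log2 scale for each doubling of the day (unadjusted p = 0.0062, adjusted p = 0.43). With 2 residual degrees of freedom a single library weighs heavily: without day 2, 714 genes and 1 member, Kif13b, passed.

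Large and small unmarked neurons differed in many motors. These nuclei came from the control and from every injury library made with 10x. A count of 0 for Atf3 and Sema6a does not show that a neuron was uninjured. A nucleus took the class with most of its 5 markers, at least 3 and more than any other class. The Nefh/S100b and Cadps2/Ntrk2 classes were called large and the other 5 small. Large nuclei were deeper in each 10x library, with a median of 3597 UMIs against 2939 in the control. Of 43 members tested 13 were higher in large and 10 in small neurons, beside 28.1% and 26% of all genes, so the share of motors that differed was that of the background. The median member differed by 0.01 (log2), the same as the median gene.

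Kif5c, the heavy chain enriched in neurons, was at a median of 795 CPM in large (657 to 1182) and 563 in small neurons (454 to 876), higher in large neurons in 7 of 7 libraries, by 0.53 ± 0.05 (adjusted p = 1.23e-07). Its paralog Kif5b went the other way, with medians of 551 and 698 CPM and a log2 difference of -0.25 ± 0.05 (adjusted p = 0.00042), and Kif5a (-0.11, adjusted p = 0.083) did not pass. The Kif5c level was not uniform among small neurons, and its highest class, given below, was a small one. The kinesin-3 motors also differed in direction: Kif1b was at 1792 CPM in large and 1423 in small neurons (log2 0.38 ± 0.05), and Kif1a at 997 and 1167 (-0.18 ± 0.05). So did the intermediate chains of dynein, with Dync1i1 higher in large neurons (515 and 437 CPM, log2 0.36 ± 0.05) and Dync1i2 higher in small neurons (315 and 399 CPM, -0.31 ± 0.05). Ranges overlapped between the groups for each of these genes, but within every library the direction was the same.

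The widest differences were in less abundant kinesins. Kif13b, a kinesin-3 motor, was at 52.7 CPM (41.0 to 91.9) in large and 121 (76.8 to 171) in small neurons, a log2 difference of -0.94 ± 0.06 (adjusted p = 8.36e-10). Kif23 differed by -1.22 ± 0.23 (3.28 and 10.9 CPM) and Kif22 by -0.54 ± 0.12 (8.57 and 14.3 CPM). Higher in large neurons were Kif21b, a kinesin-4 motor (19.0 and 12.1 CPM, log2 0.74 ± 0.13), Kif16b (111 and 69.4 CPM, 0.62 ± 0.09), Dync2h1, the heavy chain of ciliary dynein (79.5 and 49.8 CPM, 0.59 ± 0.06), and Kif2a (111 and 89.5 CPM, 0.40 ± 0.05). Dync1h1 was higher by 0.35 ± 0.05, Klc2 by 0.24 and Klc1 by 0.18, the last 2 in 6 of 7 libraries. In small neurons Kif1c (-0.40), Dctn2 (-0.21), Kif3b (-0.18) and Dctn3 (-0.17) were higher. Kif11 and Kif6 (0.97 and 0.77) were called with medians of 3.205 and 6.61 CPM in large neurons, and Kif26b (0.13) was the smallest call. Among nuclei of 2000 to 6000 UMIs Klc1, Klc2, Kif1c and Kif26b did not keep their call. With residual markers for size Klc1, Kif11, Kif6 and Kif26b did not, and with at least 4 class markers Kif1a and Dctn3 did not. Leaving out the control or the scratch lesion library ended the calls of Dctn3, Kif3b and Kif26b. Kif11, Kif6, Kif26b and Dctn3 here, and Kif14 above, fall outside the rule for named genes and were named after their values were seen.

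The Drop-seq control, which no fit used, gave the same sign for 21 of the 23, all but Kif26b and Kif6. The share over all genes was not computed. There Kif13b stood at 42.7 CPM in large and 102 in small neurons, Kif5c at 1348 and 811, Kif5b at 1557 and 2053, and Dync1i2 at 593 and 901. Kif23 stood at 0.871 CPM (3 UMIs) and 19.6 CPM.

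**Figure D3:**
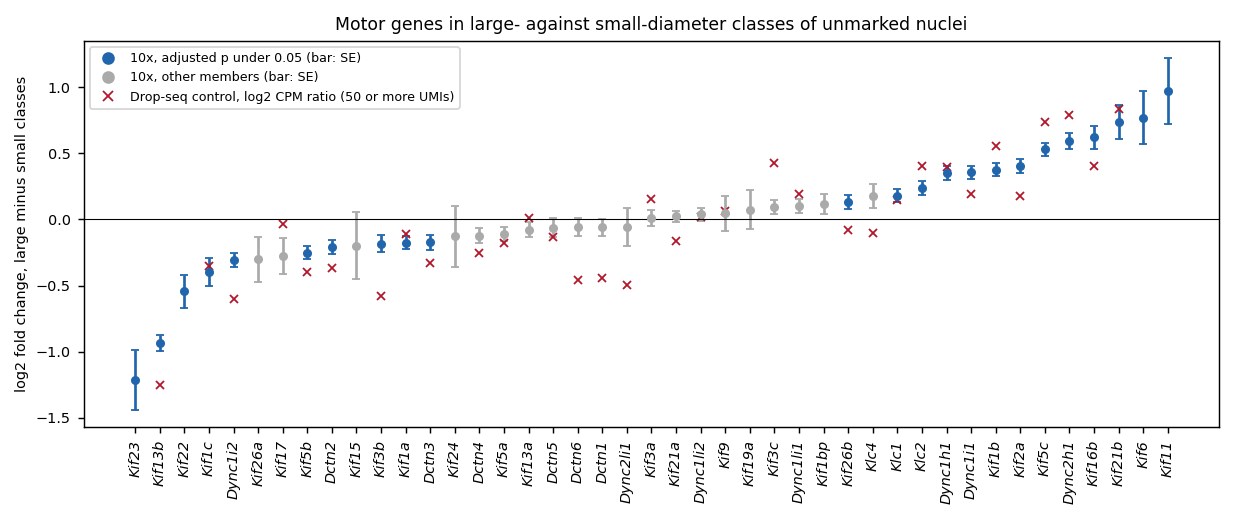
Log2 difference of large minus small unmarked neurons for each member, as fitted over 7 10x libraries (points, bars are SE). Crosses give the CPM ratio in the Drop-seq control, only for members with at least 50 UMIs there. The 23 called points run from Kif23 at -1.22 to Kif11 at 0.97. Of these, Kif23, Kif22, Kif11 and Kif6 have too few Drop-seq UMIs for a cross.

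Across the 7 classes 33 of 36 members tested differed (edgeR), beside 77.8% of all genes, and Kif3c, Kif1bp and Kif9 did not pass. The ratio of the highest to the lowest class mean had a median of 1.75 over the 33 called and ran from 1.24 to 28.3. The Mrgprd/Mrgpra3 non-peptidergic class was highest for 12 of them and the Cadps2/Ntrk2 class lowest for 10. Such counts were not made over all genes, so they are not read as a trait of motors. Classes were called by marker counts, and 46.7% of the 21464 classed nuclei stood next to the limit. The Nefh/S100b class had 0 of its own markers among its 10 leading genes. The Il31ra/Nppb class had only 22 to 70 nuclei a library. Drop-seq put the same class highest for 20 of the 33, and the share over all genes was not computed.

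Kif26a marked the Tac1/Calca peptidergic class, at 28.1 ± 3.54 CPM (SD, n = 7 libraries) against 1.64 to 8.35 in the other 6 classes, and the Tac1/Calca class was highest in 7 of 7 libraries and in Drop-seq. Kif21b stood at 26.3 ± 11.2 CPM in the Trpm8 class, 19.3 ± 4.21 in the Nefh/S100b class and 2.44 ± 2.77 in the Mrgprd/Mrgpra3 class, with 1 UMI in all in the Il31ra/Nppb class. Kif5b was highest in the Mrgprd/Mrgpra3 class at 1057 ± 235 CPM, with the Il31ra/Nppb class at 1050 ± 328 within that spread, and lowest in the Cadps2/Ntrk2 class at 457 ± 141. Kif5c had its peak elsewhere, at 1121 ± 202 CPM in the Cdh9/Fam19a4 class against 399 ± 238 in the Il31ra/Nppb class.

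Of the dynein chains, Dync1i2 was at 634 ± 105 CPM in the Mrgprd/Mrgpra3 class and 272 ± 41.8 in the Trpm8 class. Dync1i1 was also highest in the Mrgprd/Mrgpra3 class, at 517 ± 95.9 CPM with the Nefh/S100b class at 508 ± 75.4 within that spread, and lowest in the Tac1/Calca class at 316 ± 34.2. Small classes thus lay at both ends for Dync1i1, though the pooled small neurons were below the large ones. Kif16b was highest in the Cadps2/Ntrk2 class at 170 ± 38.4 CPM and lowest in the Mrgprd/Mrgpra3 class at 44.5 ± 17.1. Kif13b was highest in the Tac1/Calca class at 176 ± 60.1 CPM and lowest in the Nefh/S100b class at 62.2 ± 19.0. For both Kif16b and Kif13b, Drop-seq put another class highest, the Il31ra/Nppb class.

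**Figure D4:**
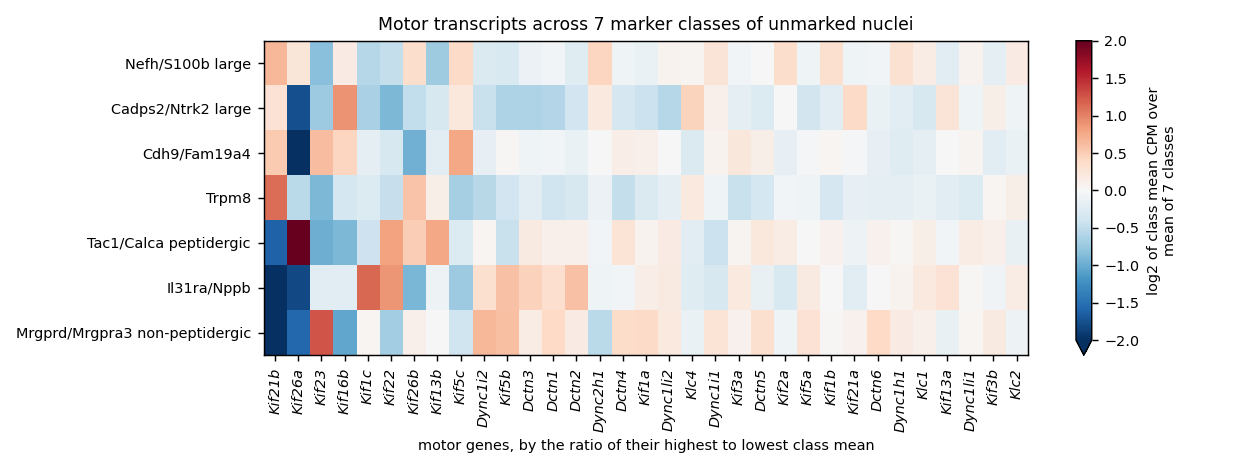
Mean CPM of members in the 7 classes, as the log2 ratio to each member's mean over classes (colour scale from -2 to 2). Kif26a stands out in the Tac1/Calca row, with 28.1 CPM against 1.64 to 8.35 in other rows, and Kif21b is low in the Mrgprd/Mrgpra3 row at 2.44 CPM.

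The tracks and partners of the motors were read from lists of the same pathway. After IOT 11 of 26 genes of microtubule tracks were higher in marked nuclei and 0 lower, with a median log2 difference of 0.21 against -0.01 over all genes, of which 8.96% were higher and 7.3% lower. Tubb6, a beta-tubulin, rose by 3.40, the tubulin-binding stathmin Stmn4 by 1.64, the alpha-tubulin Tuba1c by 1.03 and the kinesin-1 cofactor gene Map7d1 by 0.95. Of 38 cargo adaptors and regulators 4 passed, a share below that of all genes, namely Kifap3, the adaptor of kinesin-2 (0.60), and Hap1, a huntingtin partner (-0.97), the kinesin adaptor Fez1 (-0.55) and the lysosome adaptor Arl8b (-0.29). Of 22 dynein light chains and cofactors 0 were called, with 1 at an unadjusted p of 0.05 and 0 by DESeq2.

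Between large and small neurons 13 adaptors were higher and 10 lower of 37, 11 track genes higher and 9 lower of 25, and 5 light chains and cofactors higher and 7 lower of 19. These stand beside 28.1% higher and 26% lower among all genes. The neurofilament Nefm, on the adaptor list as slow cargo, stood at 1.28, and the kinesin-1 cargo linker Clstn1 at 0.60. Grip1 (-0.84) and Ppfia2 (-0.69), which link kinesins to synaptic cargo, were higher in small neurons. Of the tracks Map2 (1.93) and Dclk2 (1.70) were higher in large neurons, and Tuba1c (-2.12) and Tubb2b (-1.73) in small ones. Map2 is also among the residual markers of large neurons.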

How the data were processed

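Single nucleus libraries were deposited as tables of UMI counts per gene and nucleus, with no normalization. Per the submitters' processing notes the authors worked on the mouse build mm10 and used Cell Ranger 2.1.0, Seurat 2, STAR 2.5.3a and bcl2fastq 2.17. According to the study's methods introns were counted, and the authors had filtered nuclei and removed non-neuronal clusters before deposit. Annotation version and counting strand: not given in the sources used here. In all, 18 members overlap a listed gene on the other strand, so their reads may not be separable. Doublets were not called. In single nuclei free RNA can add UMIs of genes a nucleus does not express.

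UMIs were summed over nuclei per library and group and expressed as CPM. Exact 95% Poisson intervals and the limit of 3 counts behind a count of 0 cover counting error only. Sums were tested with edgeR 4.0.16 (quasi-likelihood, TMM scaling, filterByExpr, library as block, Benjamini-Hochberg over all genes tested, threshold 0.05, R 4.3.3), after a check on simulated counts. Each SE was obtained from the F statistic, as the size of the log2 difference divided by √F. CPM are UMIs scaled to a fixed total of UMIs. Genes of each gate were left out of its test. Alternatives were DESeq2 1.42.0, other gates, no filter, no scaling, a depth band, no block and leaving out libraries. Drop-seq entered no fit. Gene lengths came from GENCODE M21 and promoters from RefSeq.

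The members and lists were chosen with earlier results of these data known. Always named were the mitotic kinesin Kif22 and common transport motors and subunits (Kif1a, Kif1b, Kif5a, Kif5b, Kif5c, Kif3a, Kif3c, Kif21a, Klc1, Klc2, Dync1h1, Dync1i1, Dync1i2, Dctn1). Members were also named if they were among the 10 largest called rises or falls of a test with at least 5 CPM and 1 direction in every library. So were members next to the 50 UMI limit, and up to 4 genes of each other list by size.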

Additional observations from a re-analysis of the deposited data

How the results depend on the processing

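Of 11 members called after IOT, 0 remained without the library block (281 genes of all, against 2579) and 6 to 10 when 1 library was left out (1548 to 3178 genes), with 6 without day 2. Subtracting the control difference, an alternative chosen after seeing the data, rests on 1 control library that is assumed to vary like the others. Only its log2 differences are given. After IOT they were -0.12 for Kif1b, 0.087 for Kif26b, -0.0095 for Kif3c, -0.010 for Kif5b, 0.11 for Dync1h1 and -0.14 for Dync1i1. Those of Kif2a (0.31), Kif24 (0.72) and Kif26a (-0.98) were also smaller in size than without the subtraction, and for Kif24 and Kif26a the marked control nuclei held few UMIs. Kif22 (3.65) and Kif14 (6.91), with few or no control UMIs in marked nuclei, were larger. The library block is the pairing of marked and unmarked nuclei of 1 library, and replicate numbers in the labels pair no samples, since each condition has 1 library. The 1 member after milder injuries became 3 with a gate on both genes (1030 genes, against 437), 2 in the depth band and 0 to 1 with a library left out (19 to 797 genes). In large-marked nuclei the 7 became 3 at a gate of 1 UMI (1058 genes, against 1990) and 2 to 8 with a library left out (879 to 2659 genes). In small-marked nuclei the 6 became 1 (537 genes, against 1191) and 2 to 7 (438 to 1410 genes). The trend with day called 0 to 1 members with a day left out (2 to 714 genes, against 0). The IOT effect minus the milder effect ranged from 0 to 88 genes against 6, and the size interaction from 8 to 188 against 100, with 0 members each time. Kif26b, 0.13 in large minus small neurons, was -0.24 with residual markers for size. Of 298 other values of named members in that contrast 274 kept their call, as did 119 of 165 after IOT, 31 of 49 in large-marked and 29 of 41 in small-marked nuclei. The causes were not tested. Kif22 kept its call in large-marked and in small-marked nuclei under each of the 7 alternatives run. In small-marked nuclei Kif14 and Kif26a rest on 0 to 8 UMIs a library among marked nuclei.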
